A study of Mus musculus with 18 samples.

Results

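Spleen transcripts were compared between ICR mice on a high fat diet that received control-FMT and control mice, with 3 RNA libraries in each group. The comparison covers every gene of the deposited table whose mean reached 1 FPKM (a fragment count scaled to transcript length and library size) in either group, which are 12806 of 19326 genes. Ccdc3 (means of 1.0 and 0.89 FPKM in the control and the treated group) and Nos1ap (1.0 and 0.743) lay just inside this limit, and Spp1 (0.903 and 0.997) and Als2cr12 (0.9 and 0.997) just outside it. All mice were 10 weeks old per the labels. FMT is read here as faecal microbiota transplantation and AOS as alginate oligosaccharide, the donors being known only by the word control. The 6 libraries belong to a set of 18 with 4 more groups of 3. These were on a high fat diet alone (HFD), on the diet with AOS, on the diet with AOS-FMT, or on AOS alone. Labels that name AOS give it at 10 mg/kg, and for AOS-FMT they do not say whether the recipients were dosed. The series asks about effects of FMT on spleens of mice fed a high fat diet. The compared groups differ in both the diet and the transplant, which cannot be told apart against control. The libraries are called HFD/control-FMT 1 to 3 and control 1 to 3 below. No label ties a library to an animal, so p-values measure the spread between these libraries, which may be technical. The labels give no hour, day or batch of collection.

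The spleen filters blood in its red pulp, where macrophages take up old red cells, and in mice the red pulp also makes red cells and holds granulocyte precursors. Its white pulp holds B cell follicles and T cell zones that are kept apart by chemokines such as CCL21 and CXCL13. Circadian clock genes run in spleen cells as elsewhere: BMAL1 (Arntl) and CLOCK bind E-boxes and drive Per, Cry, Nr1d1 and Dbp, whose products feed back on the loop or pass the rhythm on to output genes. The gut flora, which a faecal transplant replaces in part, is known to act on immune cells at a distance through its metabolites.

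In the series as a whole the libraries summed to 627964 to 831448 FPKM, and 12221 to 12898 genes per library reached 1 FPKM. No read counts are given, so the depth behind a value is unknown. All 13 B cell genes and all 16 red pulp macrophage genes of the marker lists reached a mean of 1 FPKM in at least 1 group. Haemoglobin genes took 34.4%, 27.1% and 21.5% of all FPKM in control 1, 2 and 3 and 15.4%, 18.4% and 18.8% in HFD/control-FMT 1, 2 and 3. The groups did not overlap. The mean share was 27.7 ± 6.47% in control and 17.5 ± 1.86% after diet and transplant (SD, n = 3 each), and the exact permutation p on both sides was 0.1, the smallest that 3 libraries against 3 allow. Because all genes share the reads of a library, a scaling to the total without haemoglobin was also tried. In bulk tissue, fewer cells of a type and less RNA per cell cannot be told apart.

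Of 12969 genes tested over the 18 libraries, limma called 665 different between HFD/control-FMT and control at an adjusted p of 0.05, or 5.13%. Of these, 414 (3.19%) rose and 251 (1.94%) fell. All 665 belong to the 12806 genes compared, of which they are 5.19%. At an unadjusted p under 0.05 were 3489 of the 12969, the background for list counts at that level below. In 653 of the 665 the libraries of the groups did not overlap, against 3080 of all tested genes (23.7%, with 15.5% higher and 8.29% lower). The direction depended on the scaling: with median-ratio factors 378 genes passed, 175 higher and 203 lower, so that the higher share was 46.3% and not 62.3%, and without haemoglobin in the total it was 47.1% of 403. With the 6 libraries alone it was 2 (Kap and Nr1d1), with 2040 genes at an unadjusted p under 0.05. The count also rested on single libraries. Without control 1, HFD/control-FMT 1 or HFD/control-FMT 2 it was 12, 5 and 12, and without control 3 it was 3104 of 13038. List counts without control 3 below are to be read beside that total, not beside the 3.19% and 1.94% of the main fit. Lists and their members were chosen with earlier results of these data known. Their counts beside the shares over all genes are therefore description and not a test of any list. Libraries of other groups moved it by more than 1.5 times as well, since all 18 enter the shared spread: without HFD with AOS-FMT 1, 2 or 3, HFD with AOS 2 or AOS 1 it was 375, 382, 366, 367 and 367. In each of the 18 fits that left out 1 library, 5 genes passed, and they were Cd72, Dbp, Nr1d1, Pltp and Tspan10. All 92 named genes that passed kept their direction in each of those fits. Where groups do not overlap that was fixed in advance, since leaving out 1 library cannot turn the sign. Only 7, 4 and 6 of the 92 still passed without control 1, HFD/control-FMT 1 and HFD/control-FMT 2.

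**Figure D1:**
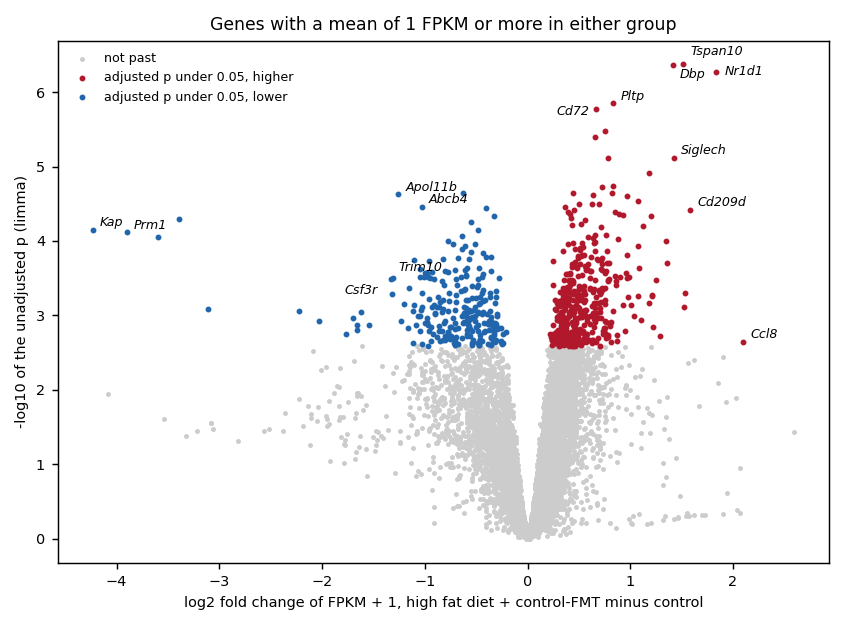
Each point is 1 of 12806 genes, with the log2 fold change of FPKM + 1 (HFD/control-FMT minus control) on the x axis and the unadjusted limma p as -log10 on the y axis. Red and blue points passed an adjusted p of 0.05. Tspan10, Dbp and Nr1d1 share the smallest adjusted p of 0.0023, and Kap and Prm1 lie far to the left.

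Circadian clock genes that peak with or near Dbp were higher in the HFD/control-FMT spleens, 6 of 12 past the test, while Arntl and other genes of the opposite phase were not called. The hour of collection is unknown, so hour and group cannot be told apart here. Dbp, a transcription factor that passes the rhythm on, lies at chr7:45705088-45710203 (GRCm38). It was at 4.89, 7.12 and 7.15 FPKM in control 1, 2 and 3 and at 18, 21.4 and 16.3 FPKM in HFD/control-FMT 1, 2 and 3. Every treated library was more than 2 times as high as every control library. The log2 fold change was 1.41 (SE 0.17, adjusted p = 0.0023). Throughout, 3 values of a group are its replicates 1, 2 and 3 in FPKM, control first, and a value given with an adjusted p is the log2 fold change of FPKM + 1, HFD/control-FMT minus control, from limma. Nr1d1, which encodes the haem-binding repressor REV-ERB alpha and lies at chr11:98767932-98775333, was at 1.61, 1.99 and 2.13 FPKM in the control libraries and at 10.0, 8.46 and 9.61 FPKM in the treated ones. Its 3 treated libraries were close to one another and far above the controls, with a log2 fold change of 1.83 (SE 0.224, adjusted p = 0.0023). Both genes passed in each of the 18 fits with 1 library left out, and Nr1d1 also passed with the 6 libraries alone. They were the 2 clock genes still called without control 1, HFD/control-FMT 1 or HFD/control-FMT 2, while 11 were called without control 3.

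The regulatory loop and output list holds 12 genes that peak with or near Dbp. All 12 had a positive log2 fold change, 6 passed the test and 9 had groups that did not overlap. Among all tested genes 3.19% were called higher and 15.5% did not overlap upward. The list's median log2 fold change was 0.46, against 0.08 over all tested genes. Nr1d2, the close relative of Nr1d1, went from 5.66, 8 and 10.3 FPKM in the control libraries to 12.6, 14.4 and 14.7 FPKM, a log2 fold change of 0.76 (adjusted p = 0.0272). Bhlhe41 (DEC2), a repressor of CLOCK and BMAL1, went from 2.08, 2.82 and 1.91 to 6.14, 4.15 and 3.44 FPKM, or 0.75 (adjusted p = 0.0303) on the log2 scale. Ciart (CHRONO), which acts on the same complex, had levels of 1.48, 2.1 and 1.53 FPKM against 2.56, 2.63 and 2.81 FPKM and a change of 0.45 (adjusted p = 0.0355). In all 3 genes the lowest treated library lay above the highest control. Cry2, a core repressor, rose least of those called, from 3.33, 3.46 and 3.76 to 4.76, 4.42 and 4.32 FPKM, by 0.28 (adjusted p = 0.0384).

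Of the 6 members that did not pass, Hlf and Tef belong to the same PAR bZIP family as Dbp. Hlf was at 0.63, 0.82 and 0.71 FPKM in the control libraries and 1.05, 1.49 and 1.23 FPKM in the treated ones, a log2 difference of 0.39 (adjusted p = 0.0514). For Tef the levels were 8.45, 12.2 and 13.3 against 15.6, 18.3 and 14.9 FPKM, and the difference was 0.51 (adjusted p = 0.0584). Neither gene had overlapping groups. The Period genes, whose proteins repress the loop, had log2 differences of 0.43 (adjusted p = 0.0833) for Per1, 0.29 (adjusted p = 0.145) for Per2 and 0.47 (adjusted p = 0.0528) for Per3. Tsc22d3 (GILZ), which is also a glucocorticoid target, overlapped between groups at 43.1, 73.5 and 106 against 91.4, 74.7 and 119.7 FPKM (adjusted p = 0.518).

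Genes of the opposite phase and the activators did not pass: limma called 0 of the 6 that were tested, 1 of them at an unadjusted p under 0.05, with a median log2 difference of 0.04. Arntl itself was at 5.29, 9.1 and 10.7 FPKM in the control libraries and 7.78, 8.53 and 8.8 FPKM in the treated ones, a difference of 0.05 (adjusted p = 0.876). Clock, its partner, was at 4.26, 5.16 and 6.55 against 5.43, 5.11 and 5.75 FPKM, with 0.04 (adjusted p = 0.881). In both genes all treated libraries lay inside the control range. Cry1 and Nfil3, a repressor that opposes DBP at D-boxes, had log2 differences of 0.04 (adjusted p = 0.866) and 0.04 (adjusted p = 0.916), and Rora, an activator that opposes REV-ERB, had 0.36 (adjusted p = 0.0991). Npas2 was below the limit at 0.86, 0.93 and 0.75 FPKM in control and 0.39, 0.23 and 0.4 FPKM in the treated libraries and was not tested. The median of this second list was -0.03 with median-ratio scaling, -0.01 with quantile normalization and -0.08 without control 1.

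The promoter windows of 4 called clock genes are shown because the loop is known to act at E-boxes; they come from RefSeq on GRCm38.p6 and run from 250 bases before to 50 bases after the annotated start. Nr1d1 lies at chr11:98775328-98775627, Ciart at chr3:95882179-95882478 and Bhlhe41 at chr6:145865371-145865670, each on the minus strand, and Dbp at chr7:45704997-45705296 on the plus strand. Sequences run 5′ to 3′ on the gene's strand, and capitals mark the E-box letters CACGTG, which read the same on both strands.
Nr1d1: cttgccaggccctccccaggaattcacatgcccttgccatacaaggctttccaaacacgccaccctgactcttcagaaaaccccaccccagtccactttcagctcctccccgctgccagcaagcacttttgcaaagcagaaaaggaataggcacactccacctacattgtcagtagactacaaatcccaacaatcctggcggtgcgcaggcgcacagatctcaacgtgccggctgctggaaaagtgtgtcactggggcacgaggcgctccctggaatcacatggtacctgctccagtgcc
Dbp: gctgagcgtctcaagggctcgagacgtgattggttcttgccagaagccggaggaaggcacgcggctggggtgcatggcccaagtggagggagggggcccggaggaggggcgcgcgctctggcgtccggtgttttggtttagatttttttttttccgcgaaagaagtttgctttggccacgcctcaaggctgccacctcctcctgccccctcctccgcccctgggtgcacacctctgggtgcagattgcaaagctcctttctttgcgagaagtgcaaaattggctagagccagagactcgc
Ciart: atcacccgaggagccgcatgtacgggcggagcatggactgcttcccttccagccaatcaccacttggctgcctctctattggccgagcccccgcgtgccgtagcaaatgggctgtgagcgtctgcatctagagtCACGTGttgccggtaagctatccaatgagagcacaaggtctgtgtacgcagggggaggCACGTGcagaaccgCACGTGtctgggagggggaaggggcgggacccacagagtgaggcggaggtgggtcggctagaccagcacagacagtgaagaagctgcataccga
Bhlhe41: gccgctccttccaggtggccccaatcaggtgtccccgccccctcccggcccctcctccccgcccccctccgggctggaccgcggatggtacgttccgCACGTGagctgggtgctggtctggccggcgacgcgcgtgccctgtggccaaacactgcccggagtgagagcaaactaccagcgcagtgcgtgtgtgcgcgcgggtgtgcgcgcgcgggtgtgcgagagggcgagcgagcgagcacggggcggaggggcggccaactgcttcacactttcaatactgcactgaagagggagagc
All 6 called clock genes had a window, and 2 of the 6 windows held the letters, Ciart 3 times (starting at -116, -58 and -44 from the gene start) and Bhlhe41 once (at -153). Over all 32851 windows of this length the share with a match was 7.15%. The windows of Nr1d1, Dbp, Nr1d2 and Cry2 did not hold these letters, which says nothing of sites elsewhere in those genes. None of the 6 held the D-box letters TTATGTAA on either strand, which 0.938% of all windows hold.

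Against the diet alone, the same genes were set side by side; both comparisons use the control libraries, so the test is the direct difference from HFD. The HFD libraries had 7.36, 7.14 and 6.94 FPKM of Dbp, inside or just above the control range, and HFD/control-FMT was higher than HFD by 1.26 (adjusted p = 0.0181) on the log2 scale. For Nr1d1 the HFD libraries stood between the other groups at 4.06, 4.45 and 3.04 FPKM, without overlap with either. Its difference from HFD was 1.10 (adjusted p = 0.596). The call of Dbp against HFD was lost without HFD/control-FMT 1, HFD/control-FMT 2 or any 1 of the HFD libraries, with adjusted p from 0.0572 to 0.193 and log2 differences from 1.15 to 1.28. The 12-gene list had a median of 0.15 for HFD minus control and of 0.41 for HFD/control-FMT minus HFD, with 1 member called in the latter. Elsewhere in the series Dbp was at 12.5, 15.9 and 16.2 FPKM on the diet with AOS, 5.95, 4.68 and 7.12 FPKM on the diet with AOS-FMT and 9.69, 8.78 and 6.19 FPKM on AOS alone. In order of level HFD/control-FMT came first, then the diet with AOS, whose highest library lay just below the lowest HFD/control-FMT library, then AOS alone, HFD and the diet with AOS-FMT, which overlapped one another.

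**Figure D2:**
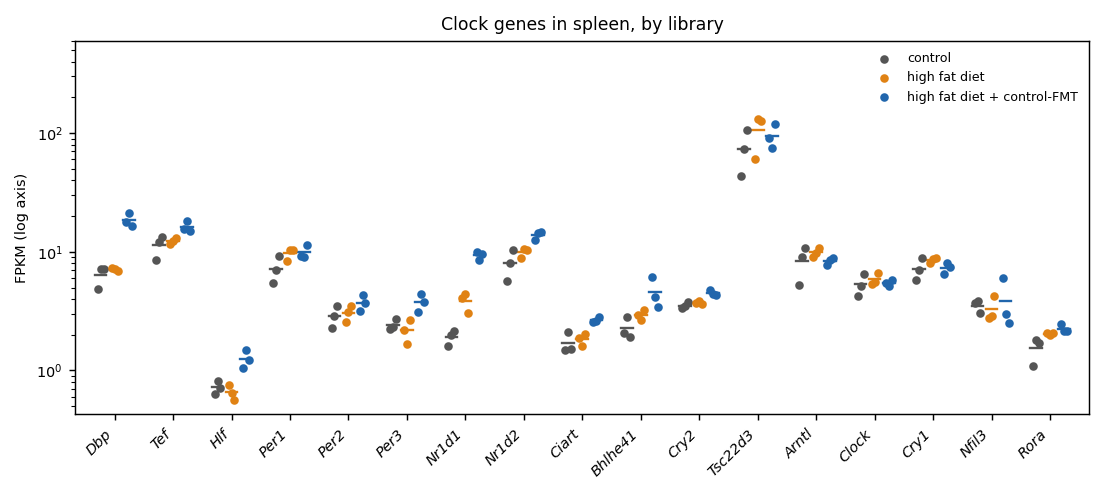
FPKM (log axis) of the 12 clock genes in phase with Dbp, from Dbp to Tsc22d3, and of 5 genes of the opposite phase or among the activators, in the libraries of 3 groups (points, replicates 1 to 3 from left to right; lines are means). Dbp is at 16.3 to 21.4 FPKM in the blue HFD/control-FMT points against 4.89 to 7.15 in control, while Arntl overlaps between all groups.

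Across all genes, 2 of 12969 (0.0154%) passed for HFD/control-FMT minus HFD, both higher, with 601 at an unadjusted p under 0.05, and HFD minus control called 357 (2.75%, with 1.46% higher and 1.3% lower). The groups did not overlap between HFD/control-FMT and HFD in 10.2% of genes (4.57% higher and 5.59% lower). Beside Dbp the gene called was Tmsb15b1, one of several closely related thymosin beta genes, at 2.27, 2.53 and 2.03 FPKM after the diet and transplant and 0.25, 0.49 and 0 FPKM on the diet. The log2 difference from HFD was 1.41 (adjusted p = 0.0181). Its control libraries, at 0.71, 1.49 and 1.84 FPKM, lay below the treated ones without passing the test (log2 difference 0.51, adjusted p = 0.117). Limma called 0 genes without HFD/control-FMT 1, HFD/control-FMT 2 or HFD 1, with 423, 423 and 965 at an unadjusted p under 0.05, so neither gene passed there. Neither passed without HFD 3 (adjusted p = 0.0572 for Dbp and 0.0733 for Tmsb15b1), where 3 other genes did: Tspan4 was higher, and Kap and Mup12, of kidney and liver, were lower. Reads of Mup12 may be shared with its near-identical copies. Without HFD 2 Tmsb15b1 alone passed, and without HFD/control-FMT 3 Dbp and Cacna1f did. Tspan4, Mup12 and Cacna1f were chosen after their values were seen. Tmsb15b1 was not called with pseudocount 0.1 and was not tested at a mean of 5 FPKM. The next smallest p under the rule for named genes belonged to 3 genes that did not pass: Nr1d1, Cox6a2 (12, 14.2 and 10.1 FPKM against 7.27, 4.28 and 6.76 FPKM in HFD, 0.89, adjusted p = 0.596) and Creb3l1, a membrane-bound transcription factor of secretory cells (2.94, 2.36 and 3.28 against 5.07, 4.15 and 5.09 FPKM, -0.58, adjusted p = 0.626).

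The 12 largest rises also held chemokines and a lectin. Ccl8, an attractant of monocytes and lymphocytes, had the largest fold change among called genes whose higher group mean was 2 FPKM or more and whose groups did not overlap. It went from 0.75, 1.7 and 1.2 FPKM to 19.5, 6.57 and 4.23 FPKM, and HFD/control-FMT 1 was about 3 times as high as the next library. Its log2 fold change was 2.10 (SE 0.565, adjusted p = 0.0478), and without HFD/control-FMT 1 it no longer passed (adjusted p = 0.178). Cd209d, a C-type lectin related to SIGNR1, was at 3.1, 5.82 and 8.45 FPKM in control and 17.5, 23 and 15.1 FPKM in treated libraries, or 1.58 (adjusted p = 0.0177). Ccl21b, which guides T cells and dendritic cells into the white pulp, was at 28.8, 66.9 and 36.2 against 123, 96.3 and 71.4 FPKM, or 1.18 (adjusted p = 0.0327). It has near-identical copies, and so has Ccl21a (575, 1115 and 707 against 2096, 1446 and 1212 FPKM, 1.01, adjusted p = 0.0335), so reads may be split among them. Each of these genes had groups that did not overlap, but none passed without control 1.

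Tspan10, a tetraspanin, was low in both groups, at 1.13, 1.02 and 0.74 FPKM in control and 5.02, 5.24 and 3.67 FPKM in the treated libraries. The groups were far apart, with a log2 fold change of 1.52 (SE 0.182, adjusted p = 0.0023). It lies at chr11:120442644-120446950, and in HFD it was at 3.08, 2.72 and 4.85 FPKM. Klk1b27, a tissue kallikrein from a cluster of near-identical genes, went from 1.25, 1.56 and 1.03 to 6.54, 5.33 and 3.1 FPKM, or 1.35 (adjusted p = 0.0266). Pltp, the phospholipid transfer protein of plasma lipoproteins, was chosen after its values were seen because it passed in all 18 fits with 1 library left out. It was at 16.6, 21.4 and 21.8 FPKM in the control libraries and at 40.7, 34.6 and 33.3 FPKM in the treated ones, a log2 fold change of 0.84 (SE 0.11, adjusted p = 0.0044). Pltp is a target of the liver X receptors, and of the LXR target list (11 tested) 1 gene, Apoe, rose, where 3.19% of all tested genes did, and 5 were called without control 3. Apoe, the lipoprotein ligand that macrophages secrete, was at 542, 702 and 610.1 against 1106, 968 and 849 FPKM, or 0.66 (adjusted p = 0.0237). The treated libraries of both genes lay above all control libraries. Unlike Pltp, Apoe did not pass in limma without control 1 (adjusted p = 0.109), HFD/control-FMT 1 (0.123) or HFD/control-FMT 2 (0.0962). The list's median was 0.14, or 0.34 without control 3 and 0.25 without HFD/control-FMT 1. In the list 4 genes did not overlap upward and 2 downward, beside 15.5% and 8.29% of all tested genes.

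Markers of plasmacytoid dendritic cells, which make type I interferon on viral contact, were higher. Of 9 genes 6 rose, none fell, all 9 had a positive log2 difference and 8 did not overlap, where 3.19% of all tested genes were called higher and 15.5% did not overlap upward. The median was 0.75. Siglech, their sialic acid-binding surface receptor at chr7:55768178-55778925, was at 7.26, 10.3 and 10.4 FPKM in control and 30.5, 24.7 and 24.3 FPKM in the treated libraries. The lowest treated library was more than 2 times the highest control, and the log2 fold change was 1.42 (SE 0.215, adjusted p = 0.0112). Cox6a2, a cytochrome oxidase subunit of muscle that these cells also carry, went from 4.33, 4.54 and 5.28 to 12, 14.2 and 10.1 FPKM, or 1.18 (adjusted p = 0.0157). Runx2, which controls their exit from marrow, went from 2.01, 2.17 and 2.64 to 5.08, 4.18 and 4.29 FPKM, or 0.75 (adjusted p = 0.0072). Pacsin1 had levels of 2.93, 3.93 and 3.71 against 8.94, 6.72 and 5.54 FPKM and rose by 0.82 (adjusted p = 0.0177). Tcf4 (E2-2), the factor that specifies the lineage, was at 15, 21 and 22.5 against 28.7, 25.8 and 24.6 FPKM, or 0.43 (adjusted p = 0.0455), and the homing receptor Ccr9 at 1.75, 2.74 and 4.61 against 5.16, 5.16 and 6.04 FPKM, or 0.74 (adjusted p = 0.0426).

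The 3 markers that did not pass were Bst2, Ly6d and Klk1, with log2 differences of 0.70 (adjusted p = 0.122), 0.61 (adjusted p = 0.333) and 1.32 (adjusted p = 0.398). Klk1 is also a gene of the exocrine pancreas and was at 18, 97.3 and 15.2 FPKM in the treated libraries, highest in HFD/control-FMT 2, where pancreatic transcripts were highest as well. Without control 1 or HFD/control-FMT 2, Runx2 still passed and so did Siglech in the latter case, and without HFD/control-FMT 1 none of the 6 did (adjusted p from 0.0727 to 0.17). Of 21 type I interferon response genes limma called 0, with 1 lower at an unadjusted p under 0.05. Their median log2 difference was 0.04, and -0.04 with median-ratio scaling, -0.01 with quantile normalization, -0.02 without control 2 and -0.07 without HFD/control-FMT 1. The lowest p belonged to Rsad2 (87.9, 60.4 and 44.6 FPKM in control and 37.9, 32.7 and 35.3 FPKM in treated libraries, -0.80, adjusted p = 0.143) and Cmpk2 (-0.47, adjusted p = 0.207). On the diet alone Siglech was at 16, 12 and 23 FPKM, between the other groups, and in the remaining groups it was at 16.4 to 20.8 (diet with AOS-FMT), 19 to 27.1 (diet with AOS) and 11.5 to 18.9 FPKM (AOS alone).

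T cell genes were higher in the HFD/control-FMT libraries. Of 15 T cell genes 8 rose (Cd3d, Cd3e, Cd3g, Cd4, Cd5, Cd6, Lck and Zap70), none fell, 10 had groups that did not overlap, and the median log2 difference was 0.69. Over all tested genes 3.19% were called higher and 15.5% did not overlap upward. Their summed level was 346.9 to 615.4 FPKM in the control libraries and 653.7 to 864.3 FPKM in the treated ones. Cd4, the coreceptor of helper T cells, was at 25.3, 43.3 and 45.9 FPKM in control and 70.2, 70.5 and 62.3 FPKM in treated libraries, a log2 fold change of 0.85 (SE 0.151, adjusted p = 0.0177). Control 1 was the lowest of the 6 libraries for Cd4, and without it the gene still passed (adjusted p = 0.00761). Cd3g, a chain of the T cell receptor complex, was at 48.7, 82.8 and 82.3 against 133, 123 and 91.2 FPKM, or 0.71 (adjusted p = 0.0307). Cd5 and Cd6, which dampen receptor signalling, changed by 0.90 (adjusted p = 0.0272) and 0.78 (adjusted p = 0.0274). The killer cell coreceptor chains Cd8a and Cd8b1, chosen after their values were seen, had log2 differences of 0.52 (adjusted p = 0.108) and 0.69 (adjusted p = 0.115). Without control 1 the list's median dropped to 0.38 and Cd4 was its only called member. Without HFD/control-FMT 1 or HFD/control-FMT 2 none of the 8, Cd4 included, passed (adjusted p from 0.0894 to 0.186), and without control 3 the list held 14 calls.

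Of 10 regulatory T cell genes 5 rose, with a median of 0.76 (0.50 without HFD/control-FMT 1), and of 15 activation genes 10 rose, with a median of 0.70, again beside 3.19% called higher over all genes. Foxp3, which defines regulatory T cells, was at 1.89, 4.07 and 2.88 FPKM in control and 7.85, 5.43 and 3.82 FPKM in treated libraries, or 0.76 (adjusted p = 0.0435). Its groups overlapped, HFD/control-FMT 3 lying below control 2. Ctla4, their inhibitory receptor, was at 3.15, 5.29 and 3.2 against 13.7, 7.57 and 5.8 FPKM, or 0.99 (adjusted p = 0.0272), and Ikzf2 (Helios) at 1.28, 2.47 and 1.94 against 6.08, 4.28 and 3.29 FPKM, or 0.93 (adjusted p = 0.0177). Icos changed by 0.76 (adjusted p = 0.0272). In these 4 genes HFD/control-FMT 1 was the highest of the 6 libraries.

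Lag3, an inhibitory receptor that binds MHC class II, was at 2.47, 4.57 and 3.26 FPKM in control and 16.6, 8.75 and 6.87 FPKM in the treated libraries, a log2 fold change of 1.35 (SE 0.259, adjusted p = 0.0237). Pdcd1 (PD-1) was at 1.8, 2.69 and 1.72 against 11.3, 5.95 and 3.07 FPKM, or 1.21 (adjusted p = 0.0314). For Izumo1r (folate receptor 4) the levels were 11.8, 16.3 and 13.9 against 51.2, 32.7 and 21.8 FPKM, and the change was 1.20 (adjusted p = 0.0177). The treated libraries were ordered alike in the 3 genes, with HFD/control-FMT 1 highest and 3 lowest, and all lay above the controls. Tox, a factor of persistent activation, and the costimulatory receptors Cd27 and Cd28 rose by 0.97 (adjusted p = 0.026), 0.79 (adjusted p = 0.0266) and 0.86 (adjusted p = 0.0274). The receptor Tnfrsf9 (4-1BB), chosen after its values were seen, was at 1.46, 2.26 and 1.21 against 6.24, 4.07 and 2.59 FPKM, or 0.96 (adjusted p = 0.0272). None of the called members of the regulatory and activation lists passed without control 1, HFD/control-FMT 1 or HFD/control-FMT 2, where the adjusted p ran from 0.0819 to 0.189.

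Naive and recirculating T cell genes rose in 3 of 11 cases (9 were called without control 3), beside the 3.19% of all genes called higher. Over all genes 3104 of 13038 were called without control 3. Il7r, the survival receptor of resting T cells, was at 10.8, 15 and 18.4 FPKM in control and 24.3, 28.5 and 23.6 FPKM in treated libraries, or 0.78 (adjusted p = 0.025). Tcf7 changed by 0.68 (adjusted p = 0.0355) and Klf2, which keeps T cells in circulation, by 0.63 (adjusted p = 0.0472). The list's median was 0.36, 0.16 without control 1 and 0.61 without control 3. Of 13 NK and cytotoxic genes 2 rose, the adaptor Hcst (0.72, adjusted p = 0.0272) and the receptor chain Klrd1 (0.31, adjusted p = 0.0332), with 3 called without control 3, and 5 had negative values with groups that did not overlap, which 8.29% of all genes had. None of the called genes in this paragraph passed without control 1, HFD/control-FMT 1 or HFD/control-FMT 2. That list's median was 0.08, 0.31 without control 3 and -0.01 without control 1.

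**Figure D3:**
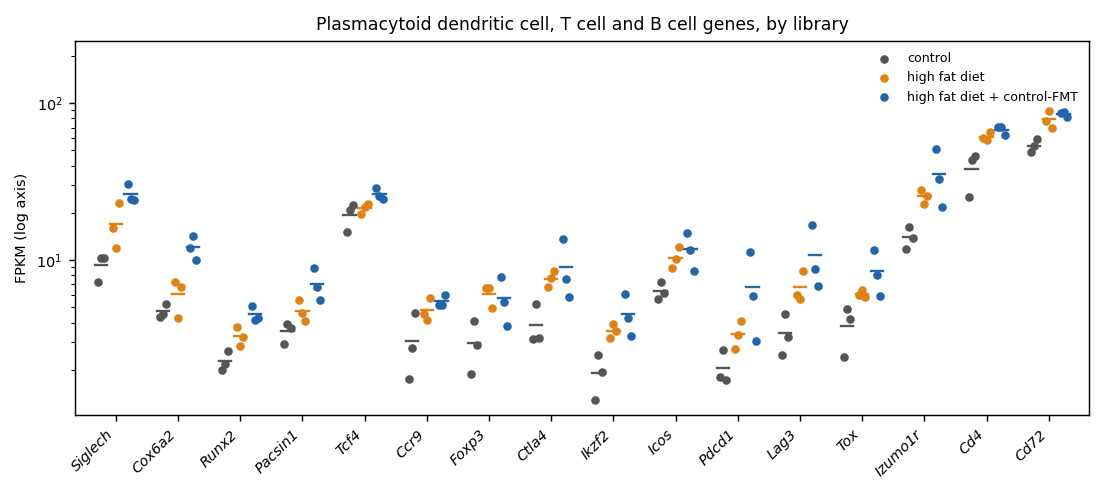
FPKM (log axis) of genes of plasmacytoid dendritic cells (Siglech to Ccr9), T cells (Foxp3 to Cd4) and B cells (Cd72) in the libraries of 3 groups (points, replicates 1 to 3 from left to right; lines are means). The blue HFD/control-FMT points of Siglech lie at 24.3 to 30.5 FPKM against 7.26 to 10.4 in control, and in several T cell genes HFD/control-FMT 1 is the highest library.

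Of 13 B cell genes 1 passed, beside 3.19% of all tested genes called higher: Cd72, an inhibitory coreceptor of the B cell receptor, which lies at chr4:43446462-43454628. It was at 48.6, 53.2 and 59.4 FPKM in the control libraries and 87.2, 88.3 and 82 FPKM in the treated ones, without overlap, and its log2 fold change of 0.67 (SE 0.0898, adjusted p = 0.0044) passed in each of the 18 fits with 1 library left out. The list's median was 0.34, and 0.18 without control 1. Without control 3 the median was 0.48 and 9 of the 13 were called. Of 9 germinal centre genes 3 rose, with a median of 0.68 (0.44 without control 3), 7 were called without HFD/control-FMT 3 and none without control 1, HFD/control-FMT 1 or HFD/control-FMT 2. Bcl6, the repressor that germinal centre B cells and follicular helper T cells need, was at 13.9, 16.9 and 17.6 against 23.2, 27 and 20.3 FPKM, or 0.51 (adjusted p = 0.026), and Fas at 9.07, 12.4 and 12.6 against 22.8, 20.0 and 15.2 FPKM, or 0.71 (adjusted p = 0.02). Basp1 changed by 0.81 (adjusted p = 0.039), with treated libraries between 25.6 and 51.4 FPKM. All 12 plasma cell genes had positive values (median 0.44) and limma called 0 of them, with 8 at an unadjusted p under 0.05 and 2, 2 and 4 called without control 2, control 3 and HFD/control-FMT 3. The closest to passing were Txndc5 (0.54, adjusted p = 0.0641) and Derl3 (1.09, adjusted p = 0.0687). In the marginal zone B cell list limma called 0 of 9 as well, with 1 at an unadjusted p under 0.05, and its median of 0.02 was below 0 with median-ratio scaling (-0.07) and quantile normalization (-0.01) and without control 1 (-0.19), control 2, HFD/control-FMT 2 or HFD/control-FMT 3. Its lowest p were those of Mzb1 (0.68, adjusted p = 0.148) and Cd9 (-0.30, adjusted p = 0.248).

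Of 14 MHC class I and immunoproteasome genes 6 rose and 10 did not overlap, with a median of 0.45, where 3.19% of all tested genes were called higher and 15.5% did not overlap upward. Tap2, which carries peptides into the endoplasmic reticulum, was at 40.0, 50.2 and 46.5 FPKM in control and 73.8, 62.4 and 59.2 FPKM in treated libraries, or 0.50 (adjusted p = 0.0177). Nlrc5, the transactivator of class I genes, was at 8.3, 12.3 and 10.1 against 22.2, 15.8 and 13.9 FPKM, or 0.70 (adjusted p = 0.0328), and the proteasome subunit Psmb8 at 125, 158 and 147 against 238, 219 and 169 FPKM, or 0.53 (adjusted p = 0.0368). The class I gene H2-K1 changed by 0.55 (adjusted p = 0.0304), with reads that near-identical class I genes may share. With median-ratio scaling 1 of the 14 passed, without control 3 it was 10, and without control 1, HFD/control-FMT 1 or HFD/control-FMT 2 none of the 6 passed. Of 10 class II genes 2 rose, H2-Ab1 (882, 1079 and 1357 against 1506, 1589.9 and 1489.7 FPKM, 0.49, adjusted p = 0.0308) and the peptide editor H2-DMa (0.41, adjusted p = 0.0295). The class II median was 0.31 and 0.13 without control 1. The class II calls were 8 without control 3 and 0 without control 1, control 2, HFD/control-FMT 1 or HFD/control-FMT 2.

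Over all tested genes 3.19% were called higher and 1.94% lower, and 1 called gene in a list is given here for that gene, not for its list. Of 19 interferon gamma response genes Irf1 rose (42, 54.3 and 58.8 against 81.7, 65.7 and 64.1 FPKM, 0.45, adjusted p = 0.0341), and of 11 conventional dendritic cell genes Irf8 did, the factor that dendritic cells and B cells share (83.3, 97.3 and 108 against 145, 141 and 133 FPKM, 0.54, adjusted p = 0.0308). Of 16 genes of the TNF and NF-kB response 4 rose and 1 fell. The adhesion molecule Icam1 rose by 0.54 (adjusted p = 0.0303), Relb by 0.47 (adjusted p = 0.0333), the inhibitor Nfkbia by 0.44 (adjusted p = 0.0397), which is also the called member of the 12 glucocorticoid response genes, and Ltb, which white pulp structure depends on, by 0.41 (adjusted p = 0.0354). Tnfaip2 fell, from 57, 44.3 and 39.3 to 28.1, 26.4 and 34.2 FPKM (-0.64, adjusted p = 0.0368). Of 11 white pulp genes Ccl21a and Ltb rose. Of 17 Toll-like receptor genes Tlr12 rose (0.40, adjusted p = 0.0355), of 17 lysosome genes Gpnmb (0.70, adjusted p = 0.0304), of 15 p53 and apoptosis genes Fas, and of 14 immediate early genes Jund (0.50, adjusted p = 0.0303) and Egr3 (0.62, adjusted p = 0.0473). Of 6 tested receptors and sensors for microbial metabolites 2 rose: the vitamin D and bile acid receptor Vdr, at 0.63, 0.93 and 0.59 FPKM in control and 2.52, 1.4 and 1.04 FPKM in treated libraries (0.59, adjusted p = 0.0472), and Cyp1b1, a target of the aryl hydrocarbon receptor (0.83, adjusted p = 0.0349). None of the genes in this paragraph passed without control 1, HFD/control-FMT 1 or HFD/control-FMT 2. With median-ratio scaling the Toll-like receptor, lysosome, immediate early, glucocorticoid response and microbial metabolite lists held 0 calls. In that scaling the TNF and NF-kB list held 2, and the interferon gamma, conventional dendritic cell, p53 and white pulp lists 1 each. Without control 3 the calls were more in each of these lists, for example 11 in the TNF and NF-kB response, 9 in lysosome genes and 5 in Toll-like receptor genes. They were also more over all genes, 3104 of 13038.

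Red cell genes were lower in the HFD/control-FMT spleens. Of 20 erythroid genes 13 fell and none rose, and in all 20 every treated library lay below every control library, against 1.94% called lower and 8.29% without overlap downward over all tested genes. The median log2 difference was -1.03. Trim10, which terminal red cell maturation needs, was at 138, 97.4 and 87.4 FPKM in control and 39, 37.3 and 49 FPKM in treated libraries and fell, with a log2 fold change of -1.33 (SE 0.285, adjusted p = 0.0272). Sptb, the membrane skeleton's beta spectrin, fell from 37.7, 28.7 and 27.2 to 12.2, 12.3 and 15.9 FPKM (-1.15, adjusted p = 0.0303). Its partner protein 4.1, Epb41, changed by -0.70 (adjusted p = 0.0326), and Epb42, which ties the skeleton to the anion exchanger, went from 59, 45.8 and 46.3 to 21.7, 18.6 and 28.9 FPKM (-1.11, adjusted p = 0.0333). Control 1 was the highest library in each of these, and HFD/control-FMT 3 the highest of the treated ones. Other called members included Slc4a1, Tfrc, Ermap, Rhd, Tmod1, Add2 and Aqp1.

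Of 13 haem synthesis genes 3 fell, all 13 were negative and 11 did not overlap, with a median of -0.81, beside 1.94% called lower and 8.29% apart downward over all tested genes. Cpox, the coproporphyrinogen oxidase of the pathway, was at 153, 120.3 and 108 FPKM in control and 57.5, 56.7 and 79.7 FPKM in treated libraries, or -0.97 (adjusted p = 0.0272). Slc25a37 (mitoferrin), which brings iron into mitochondria, was at 513, 365 and 293 against 169, 184 and 227 FPKM, or -0.98 (adjusted p = 0.0372), and its partner Abcb10 changed by -0.82 (adjusted p = 0.0472). Of 12 erythroid transcription factors 2 fell, Tal1 (72.2, 52.7 and 45.8 against 24.5, 23.5 and 34.1 FPKM, -1.02, adjusted p = 0.0341) and Gfi1b (-0.83, adjusted p = 0.0354), and the list's median was -0.75, or -0.47 without control 1. Without control 3 the calls were 12 of the 13 haem synthesis genes and 10 of the 12 factors, and without control 1, HFD/control-FMT 1 or HFD/control-FMT 2 none of the 5 called passed. The master regulators Gata1 and Klf1, chosen after their values were seen, had log2 differences of -0.82 (adjusted p = 0.103) and -0.94 (adjusted p = 0.0529). Of 8 haemoglobin genes tested limma called 0, with 1 lower at an unadjusted p under 0.05; the smallest p were those of the minor chains Hbq1b (-0.74, adjusted p = 0.177) and Hbq1a (-0.75, adjusted p = 0.283). Reads of the near-identical alpha and beta genes may be split between copies, and the haemoglobin median of -0.74 was -0.23 with quantile normalization and -0.45 without control 1.

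With median-ratio factors 9 of the 20 erythroid genes passed, without control 2 it was 5 and without control 3 it was 19. Without control 1, HFD/control-FMT 1 or HFD/control-FMT 2 none of the 13 called genes passed, with adjusted p from 0.113 to 0.213 and log2 fold changes from -1.28 to -0.57. Erfe and Pklr, a hormone of red cell precursors and the pyruvate kinase of red cells, were chosen after their values were seen. Erfe was at 3.68, 1.93 and 0.98 FPKM in control and 0.42, 0.29 and 0.5 FPKM in treated libraries (-1.10, adjusted p = 0.026), and Pklr at 22.4, 19.5 and 16.5 against 8.25, 7.19 and 12.6 FPKM (-1.01, adjusted p = 0.0272). Both fell, with treated libraries below all controls.

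The promoter windows of Trim10 and Epb42 are shown as examples of called red cell genes that carry the letters AGATAA, which GATA factors such as GATA1 can bind; they lie at chr17:36869324-36869623 on the plus strand and chr2:121036828-121037127 on the minus strand (RefSeq, GRCm38.p6). Capitals mark the match, which in both runs on the opposite strand and so reads TTATCT.
Trim10: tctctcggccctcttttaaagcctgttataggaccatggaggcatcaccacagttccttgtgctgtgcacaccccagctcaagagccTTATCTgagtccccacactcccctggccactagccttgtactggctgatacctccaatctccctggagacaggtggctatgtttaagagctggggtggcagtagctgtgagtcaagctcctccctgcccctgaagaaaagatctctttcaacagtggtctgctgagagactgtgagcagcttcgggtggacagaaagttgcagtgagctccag
Epb42: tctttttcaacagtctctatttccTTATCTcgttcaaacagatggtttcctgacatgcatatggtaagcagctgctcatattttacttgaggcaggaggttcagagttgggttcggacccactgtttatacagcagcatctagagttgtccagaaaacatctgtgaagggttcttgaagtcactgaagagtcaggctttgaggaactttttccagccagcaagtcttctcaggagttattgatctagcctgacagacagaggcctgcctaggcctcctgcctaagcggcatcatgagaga
The matches start at -163 and -226 from the annotated gene starts. Of the 18 genes called lower in the erythroid, haem synthesis and erythroid factor lists, 14 had a window, with 18 windows in all because some genes have several starts. In 5 of the 18 windows, of 5 genes, the letters occurred, against 11.2% of all 32851 windows.

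Of 25 mitosis genes 4 fell and all 25 were negative, with 10 that did not overlap and a median of -0.55 (-0.35 without control 1). Over all tested genes 1.94% were called lower and 8.29% did not overlap downward. Mki67, the proliferation antigen, was at 192, 145 and 121 FPKM in control and 87.2, 81.1 and 94.9 FPKM in treated libraries, or -0.77 (adjusted p = 0.0448). Anln and Hmmr, of cytokinesis and the spindle, changed by -0.85 (adjusted p = 0.0327) and -0.75 (adjusted p = 0.0448), and the checkpoint kinase Bub1b by -0.49 (adjusted p = 0.0426). Of 28 DNA replication genes 27 were negative and 1 fell, the origin licensing factor Cdc6 (43.9, 33.8 and 29.3 against 21.1, 17.2 and 22.7 FPKM, -0.77, adjusted p = 0.0272); the median was -0.38, or -0.22 without control 1. That 1 of 28 is near the 1.94% of all genes. Without control 3 the calls were 23 mitosis and 19 replication genes, without control 2 they were 0 and 1, and without control 1, HFD/control-FMT 1 or HFD/control-FMT 2 they were 0 in both lists. The levels of these lists were in the same order over the 3 control libraries as those of the red cell genes, 1 highest and 3 lowest. The part of 1 source in both was not tested.

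**Figure D4:**
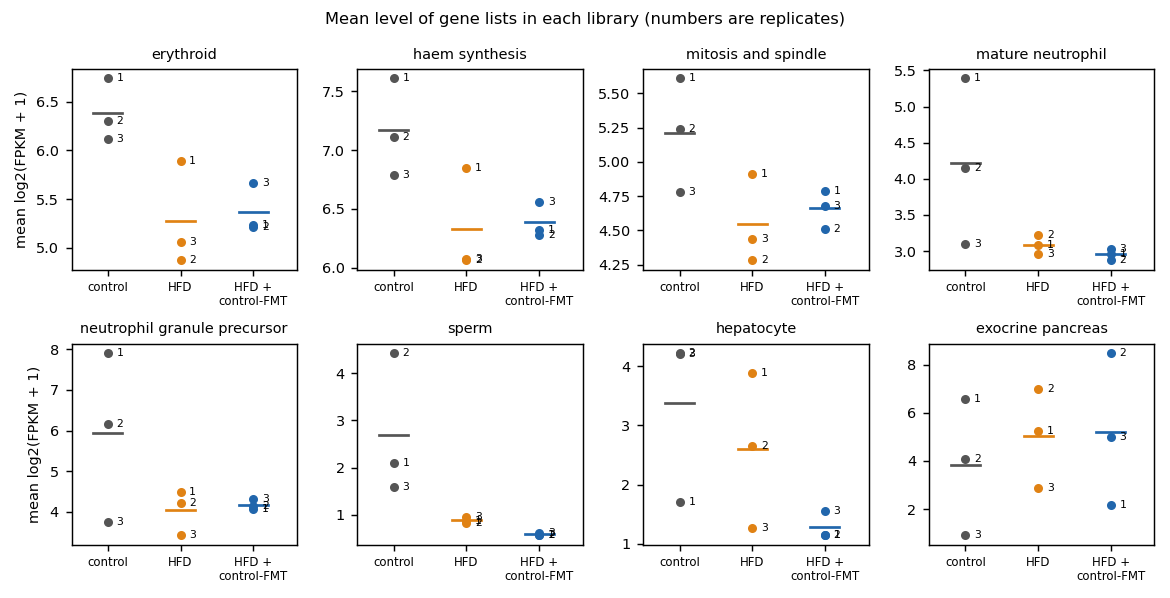
Mean log2(FPKM + 1) of the tested members of 8 gene lists in each library of 3 groups (points labelled by replicate; lines are group means). The erythroid mean is 6.12 to 6.74 in control and 5.21 to 5.67 in HFD/control-FMT, control 1 is the highest library in the neutrophil lists, and sperm transcripts peak in control 2.

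Of 13 genes of mature neutrophils 5 fell (12 were called without control 3 and 3 without control 2), where 1.94% of all tested genes did. The list summed to 10540, 2814 and 586.4 FPKM in control 1, 2 and 3 and to 530.2 to 629.6 FPKM in the treated libraries. By this sum control 3 lay inside the treated range. In mean log2(FPKM + 1) control 3, at 3.1, lay just above the highest treated library, at 3.03. Csf3r, the receptor of granulocyte colony-stimulating factor at chr4:126024550-126044440, was at 44.2, 20.0 and 16.5 FPKM in control and 9.38, 6.87 and 12 FPKM in treated libraries, a log2 fold change of -1.32 (SE 0.3, adjusted p = 0.0308). The chemokine receptor Cxcr2 went from 19.4, 8.65 and 7.01 to 4.52, 2.76 and 5.19 FPKM (-1.21, adjusted p = 0.0331), and the lectin Clec4d from 5.37, 2.85 and 2.42 to 1.58, 1.1 and 1.32 FPKM (-0.91, adjusted p = 0.0272). In all 3 genes control 1 was the highest, and the other controls still lay above the treated libraries. Mmp9, the gelatinase of neutrophil granules, was at 41.3, 13.4 and 5.38 against 2.51, 3.79 and 4.78 FPKM (-1.77, adjusted p = 0.0439), and Stfa2l1, one of a family of near-identical stefins, at 21.1, 9.58 and 4.78 against 2.76, 1.86 and 3.33 FPKM (-1.62, adjusted p = 0.0354). Mrgpra2b, a receptor that neutrophils carry and that has near-identical relatives, fell from 19, 6.54 and 3 to 0.78, 1.82 and 2.84 FPKM (-1.66, adjusted p = 0.0424). None of the 5 list members passed without HFD/control-FMT 1, HFD/control-FMT 2 or control 1 (adjusted p from 0.111 to 0.136 in the last), and without control 1 the list's median moved from -1.32 to -0.83.

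All 12 granule genes of neutrophil precursors were negative with a median of -1.77, and limma called 0, with 9 at an unadjusted p under 0.05 and no gene whose groups were apart. Lcn2, an iron-binding granule protein, was at 952, 259 and 42.1 FPKM in control 1, 2 and 3 and at 45.8, 50.5 and 54.4 FPKM in the treated libraries (-2.11, adjusted p = 0.128). Ltf, lactoferrin, was at 397, 116 and 20.1 against 19.1, 23.6 and 24 FPKM (-2.11, adjusted p = 0.119). Control 1 and control 2 were far above all other libraries in both, while control 3 lay at or just below the treated ones. The summed level of the list was 329.1 to 6474 FPKM in control and 371.6 to 444.3 FPKM in the treated libraries. The median was -0.79 without control 1 and -2.90 without control 3, and in the latter fit all 12 genes were called.

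Nrf2 response genes fell in 3 of 19 cases, with a median of -0.24, where 1.94% of all tested genes fell. Without control 1, HFD/control-FMT 1 or HFD/control-FMT 2 none of the 3 passed (adjusted p from 0.107 to 0.171), and without control 3 the list held 7 calls. Gclc and Gclm, the subunits of the enzyme that limits glutathione synthesis, were at 31.8, 29.4 and 29.6 and 101, 74.9 and 69.8 FPKM in control and at 18.5, 20.2 and 24.6 and 44.5, 39.7 and 53.6 FPKM in treated libraries (-0.51, adjusted p = 0.0237 and -0.81, adjusted p = 0.0394). Both subunits were lower in every treated library than in every control library, with control 1 highest. The peroxiredoxin Prdx6 changed by -0.24 (adjusted p = 0.0439). Of 19 glycolysis and lactate genes Pfkfb3 rose (15.9, 18.9 and 18.2 against 25.1, 24.9 and 23.1 FPKM, 0.44, adjusted p = 0.0177) and the lactate transporter Slc16a1 fell (-0.72, adjusted p = 0.0372). Over all tested genes 3.19% were called higher and 1.94% lower, so single calls in this and the next list are given for the gene, not the list. Among 21 PPAR target and fatty acid oxidation genes 1 rose, Acot1, an acyl-CoA thioesterase that PPAR alpha induces and that has close copies its reads may be shared with, at 1.39, 1.77 and 1.81 FPKM in control, 2.92, 2.59 and 5.07 FPKM in treated and 4.7, 4.38 and 2.87 FPKM in HFD libraries (0.73, adjusted p = 0.0441). The median of that list was 0.07, 0.12 without control 2 and -0.01 with median-ratio scaling. Pfkfb3, Slc16a1 and Acot1 did not pass in limma without control 1, HFD/control-FMT 1 or HFD/control-FMT 2 (adjusted p from 0.0728 to 0.16). In cholesterol synthesis and uptake limma called 0 of 19, with 3 higher and 3 lower at an unadjusted p under 0.05, among them Srebf2 (0.28, adjusted p = 0.0993), and 4 called without control 3. Over all genes 3489 of 12969 were at that level, and 3104 of 13038 were called without control 3.

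Of the 12 largest falls, 9 were transcripts of kidney, testis or liver, and the other 3 were the neutrophil genes Mmp9, Stfa2l1 and Mrgpra2b. Kap, the androgen-regulated protein of kidney tubules, was at 13.3, 20.1 and 21 FPKM in control 1, 2 and 3 and is listed at 0 in all HFD/control-FMT libraries (adjusted p = 0.0209). It was also at 27.1, 21.2 and 0.48 FPKM in HFD and at or below 0.9 FPKM in the 9 libraries of the other groups. Of 10 tested sperm genes 5 fell (9 were called without control 3), beside 1.94% of all tested genes. Prm1, the protamine that packs sperm DNA, was at 11.3, 85.6 and 6.56 FPKM in control and 0, 0.28 and 0.88 FPKM in the treated libraries (-3.90, adjusted p = 0.022), and the transition protein Tnp2 at 7.42, 70.9 and 3.23 against 0.91, 0.35 and 0.54 FPKM (-3.11, adjusted p = 0.0349). Prm2 (6.93, 55 and 3 FPKM in control, adjusted p = 0.0231), Tnp1 (5.44, 39.5 and 3.47 FPKM, adjusted p = 0.0181) and Ldhc (1.67, 14.3 and 0.67 FPKM, adjusted p = 0.0388) are listed at 0 in the 3 treated libraries. Control 2 was the highest in each of these germ cell genes. Crisp2, of the testis, was at 1.1, 9 and 0.93 against 0.06, 0.16 and 0.05 FPKM (-1.66, adjusted p = 0.0396). Summed over the 11 listed sperm genes, control libraries held 43.47 to 330.0 FPKM and treated ones 25.68 to 25.95 FPKM, with 7 to 9 members at 0 in each. The sum was 26.46 to 31.47 FPKM in HFD and 26.25 to 30.32 FPKM on the diet with AOS. On the diet with AOS-FMT it was 28.68 to 41.15 FPKM, and on AOS alone 27.24 to 30.15 FPKM. The libraries of all these groups, AOS without the diet included, thus lay below every control library.

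Of 12 hepatocyte genes Cyp3a11, a liver cytochrome with close relatives that may share its reads, fell, at 0.58, 8.37 and 6.63 FPKM in control and 0, 0 and 0.11 FPKM in treated libraries (-2.22, adjusted p = 0.0349). Over all tested genes 1.94% were called lower. Of the 12 genes 11 were negative, with a median of -2.29, and 7 did not overlap downward, where 8.29% of all tested genes did. The summed level of the list was 65.83 to 376.3 FPKM in the control libraries and 65.68 to 87.17 FPKM in the treated ones, and the lowest control, control 1, lay inside the treated range. In mean log2(FPKM + 1) the groups did not overlap, at 1.7, 4.22 and 4.21 in control and 1.14, 1.14 and 1.56 in the treated libraries. Fbp1, an enzyme of gluconeogenesis in liver and kidney, went from 1.18, 3.61 and 2.16 to 0.05, 0.1 and 0.11 FPKM (-1.54, adjusted p = 0.0396). Without control 1 Cyp3a11 still passed (adjusted p = 0.00761) and the sperm genes did not (adjusted p from 0.065 to 0.111). Neither passed without HFD/control-FMT 1 (0.104 to 0.139) or 2 (0.0894 to 0.13). Exocrine pancreas genes varied within groups: their sum was 24.29 to 1885 FPKM in control and 65.26 to 7003 FPKM in the treated libraries, highest in control 1 and HFD/control-FMT 2. Limma called 0 of 14, with 0 at an unadjusted p under 0.05, and their median of 1.44 was -0.01 without control 3 and -0.22 without HFD/control-FMT 2. The part of such tissue in the dissected samples was not tested.

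The remaining lists gave no call in limma. Their counts at an unadjusted p under 0.05 stand beside 3489 of 12969 over all tested genes. Without control 3 calls appeared in several of them, 8 in megakaryocyte and platelet genes and 3 each in red pulp macrophage, inflammasome and unfolded protein response genes. In that fit 3104 of all 13038 tested genes were called. Megakaryocyte and platelet genes were all negative (14 of 14, median -0.49, 4 at an unadjusted p under 0.05, -0.14 without control 1, -0.79 without control 3), with Tubb1 (-0.77, adjusted p = 0.0548) and Selp (-0.74, adjusted p = 0.067) closest to passing. Smooth muscle genes were negative in 9 of 9 (median -0.41, -0.27 without control 2, 5 at an unadjusted p under 0.05), and Acta2, at 49.5, 72.5 and 51.6 FPKM in control and 32.7, 29.7 and 42.2 FPKM in treated libraries, was just outside the limit (-0.71, adjusted p = 0.0504); with median-ratio scaling it was called. Red pulp macrophage and iron recycling genes had a median of -0.03 (0.11 without control 3, 0.03 without HFD/control-FMT 1), with 4 of 16 lower at an unadjusted p under 0.05, among them Slc48a1 (-0.31, adjusted p = 0.0603) and Blvrb (-0.63, adjusted p = 0.1). Marginal zone macrophage genes had a median of 0.28 (0.07 without control 1, 0.17 without HFD/control-FMT 1) and 2 of 9 higher at an unadjusted p under 0.05, Nr1h3 (0.33, adjusted p = 0.122) and C1qc (0.36, adjusted p = 0.145). Among monocyte genes Itgam (-0.95, adjusted p = 0.0586) and F13a1 (-0.98, adjusted p = 0.0954) were the 2 of 12 below an unadjusted p of 0.05, and both were highest in control 1.

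Over all tested genes 3489 of 12969 were at an unadjusted p under 0.05. In the unfolded protein response 5 of 19 genes were higher and 1 lower at that level, with Herpud1 (0.49, adjusted p = 0.0529) and Asns (-0.75, adjusted p = 0.0641) first. Of 12 inflammasome genes 5 were higher at that level, led by Aim2 (0.33, adjusted p = 0.0596) and Casp4 (0.39, adjusted p = 0.063). Among 13 complement genes 3 were higher and 1 lower at that level, among them C5ar1 (-0.73, adjusted p = 0.0979). The 32 ribosomal protein genes had a median of 0.06 (-0.03 with median-ratio scaling), 2 at an unadjusted p under 0.05, the lowest for Rps9 and Rpl18 (0.19 and 0.18, adjusted p = 0.131 for each). The 30 oxidative phosphorylation genes had a median of -0.02 and none at an unadjusted p under 0.05 (Atp5b -0.12, adjusted p = 0.228, Ndufv1 -0.15, adjusted p = 0.322). Of 16 matrix and stroma genes 2 were lower at that level, including Timp3 (-0.40, adjusted p = 0.0753), and of 12 endothelial genes 1 was higher, Madcam1 (0.44, adjusted p = 0.158). No mast cell (8), heat shock (13) or adipocyte (10) gene reached an unadjusted p of 0.05; their medians were -0.22, 0.20 and 0.40, and the last 2 were -0.21 and -0.09 without control 1 (heat shock also -0.05 without HFD/control-FMT 3).

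**Figure D5:**
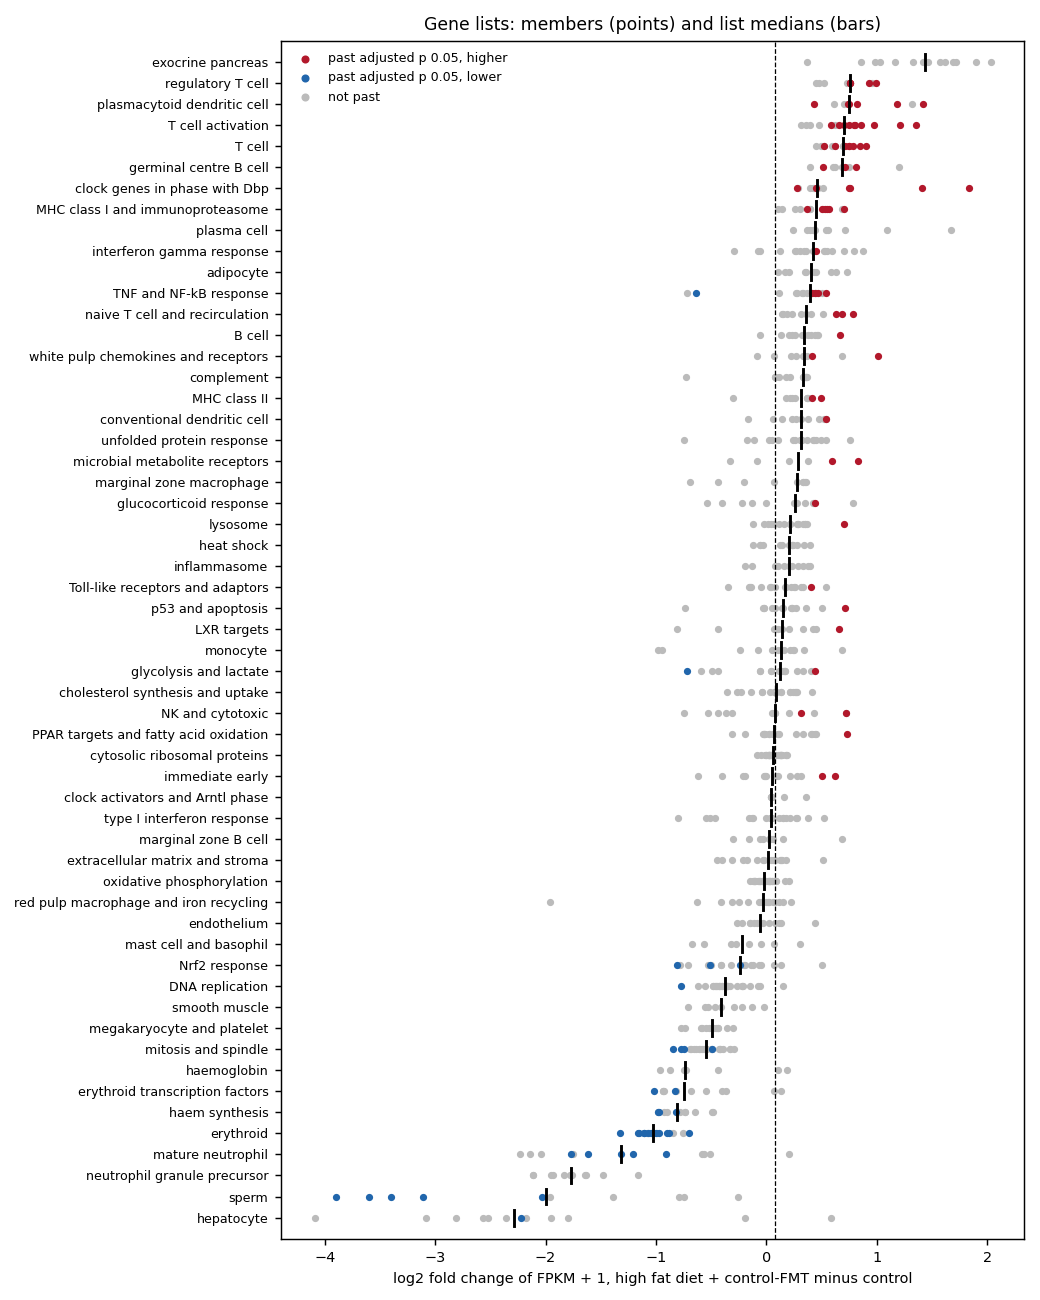
Log2 fold changes of FPKM + 1 (x axis, HFD/control-FMT minus control) of the tested members of 56 gene lists (rows, ordered by median). Points are genes, red and blue where they passed an adjusted p of 0.05, black bars are list medians and the dashed line is the median of all tested genes, 0.08; the erythroid row lies wholly to the left and the plasmacytoid dendritic cell, T cell and Dbp-phase clock rows wholly to the right.

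The medians of 7 lists, chosen after their values were seen, are set beside those of HFD minus control, which shares the control libraries. They were -1.03 here and -1.10 for HFD minus control for the erythroid list, 0.69 and 0.68 for T cells, -1.77 and -1.88 for neutrophil granule genes and 0.76 and 0.60 for regulatory T cells. They were 0.04 and 0.48 for the type I interferon response, 0.68 and 0.32 for germinal centre genes and 0.46 and 0.15 for the clock genes in phase with Dbp. In the direct comparison of HFD/control-FMT with HFD, the medians of the last 3 lists were -0.34, 0.43 and 0.41, and Dbp was the only member called. No other gene of any list passed that test.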

How the data were processed

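RNA from 18 spleen libraries of ICR mice (6 groups of 3) was sequenced, and the authors deposited 1 table of 19326 genes with a value per library. Reads were aligned with Bowtie 0.12.2 and mm10, per the submitters' processing notes; unit, counter and annotation are not given in the sources used. The deposited values are taken as FPKM because, multiplied by transcript length, they summed more evenly over libraries (CV 0.785%) than as deposited (7.55%). Without read counts, depth and counting error are unknown. From these values, log2(FPKM + 1) was fitted with limma 3.58.1 (trend, robust; R 4.3.3, statmod 1.5.0) over the 18 libraries (12 residual degrees of freedom), on 12969 genes that averaged 1 FPKM or more in some group. Benjamini-Hochberg adjusted p under 0.05 was called, and fold changes on this scale understate changes of low genes. The fit was tested on simulated data with 200 changed genes and noise drawn separately for each gene and library. That simulation held no shift shared by the genes of a library, so it does not bear on how calls rest on single libraries. Named genes were the 12 largest rises and 12 largest falls (groups apart, higher mean of 2 FPKM or more, no antigen receptor segments or provisional symbols), up to 4 called members of each of 56 lists (814 genes), or the 2 of smallest p, and 5 genes against HFD. Members and lists were chosen with earlier results of these data known. Alternatives were 3 scalings (1 added after seeing the data), pseudocount 0.1, no filter or a mean of 5 FPKM, limma without robust, the 6 libraries alone, a replicate block and each library left out. A few list members are not reported here.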

Additional observations from a re-analysis of the deposited data

Results flagged for a closer look

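In 2 genes the difference from control after the diet and transplant was not the same as after the diet alone, by limma's test of the difference itself with Benjamini-Hochberg adjustment over 12969 genes. Dbp, the clock output factor, was at 18, 21.4 and 16.3 FPKM in HFD/control-FMT, 7.36, 7.14 and 6.94 FPKM in HFD and 4.89, 7.12 and 7.15 FPKM in control libraries, and its 2 log2 fold changes against control differed by 1.26 (adjusted p = 0.0181). Tmsb15b1, a thymosin beta gene with close relatives, was at 2.27, 2.53 and 2.03 FPKM, 0.25, 0.49 and 0 FPKM and 0.71, 1.49 and 1.84 FPKM in the same order, and its fold changes differed by 1.41 (adjusted p = 0.0181). In both genes every HFD/control-FMT library was above every HFD library. For Tmsb15b1 the HFD libraries also lay below every control library, and 1 of them is listed at 0. Neither gene was called without HFD/control-FMT 1, HFD/control-FMT 2, HFD 1 or HFD 3, where the adjusted p ran from 0.0572 to 0.193. Without HFD 2 Tmsb15b1 alone was still called (adjusted p = 0.0453), and without HFD/control-FMT 3 Dbp was (adjusted p = 0.0341) and Tmsb15b1 was not. With pseudocount 0.1 Dbp was called and Tmsb15b1 was not (adjusted p = 0.123), and at a mean of at least 5 FPKM Dbp was called and Tmsb15b1 was not tested.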

How the results depend on the processing

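The count of 665 genes (414 higher, 251 lower) was within 1.5 times with quantile normalization (502), pseudocount 0.1 (724), a mean of at least 5 FPKM (680), no robust step (693) and the replicate block (972). It was 378 (175 higher) with median-ratio scaling, 403 (190 higher) with scaling to the total without haemoglobin, 379 (264 higher, 115 lower) with no filter and 2 (1 higher, 1 lower) with the 6 libraries alone, where 2040 genes were at an unadjusted p under 0.05. Higher calls were 263 with quantile normalization. Leaving out 1 library gave 5 to 3104 genes (5 to 1971 higher, 0 to 1133 lower). Against HFD the count of 2 became 1 with pseudocount 0.1 and 1 with a mean of at least 5 FPKM, and ran from 0 to 3 without 1 library. HFD minus control (357) gave 0 with median-ratio scaling, 5 with quantile normalization, 0 with no filter, 625 with a mean of at least 5 FPKM, 833 with the replicate block, 0 with scaling without haemoglobin and 0 to 3818 without 1 library. The haemoglobin difference of -10.1 percentage points ran from -13.2 to -6.77. The cause of these shifts was not tested. With median-ratio scaling and with scaling without haemoglobin the balance of calls turned from mostly higher to mostly lower. The 92 named genes called kept their direction wherever they were tested. For fits without 1 library that was fixed in advance where groups do not overlap. The medians of 14 lists changed sign in some alternative: 11 were within 0.1 of 0, and the others were heat shock (0.20, to -0.21 without control 1), adipocyte (0.40, to -0.09 without control 1) and exocrine pancreas genes (1.44, to -0.22 without HFD/control-FMT 2 and -0.01 without control 3). Over tested genes, deviations from the group mean of libraries with the same replicate number correlated at r = -0.1373, 0.04204 and 0.2176. For control and treated libraries with different numbers r ran from -0.2947 to 0.2567. Whether the replicate number stands for a shared batch or order was not tested, and no label says so. Of 92 named genes called, 67 still passed with median-ratio scaling, 78 with quantile normalization, 77 with scaling without haemoglobin and 90 with the block, and 58 passed in the 15 fits without 1 library other than control 1, HFD/control-FMT 1 or HFD/control-FMT 2. Read depth is unknown, so differences in low genes cannot be set against counting error.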
